A study of Homo sapiens with 40 samples.

Results

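The response of MDA-MB-231 cells to 30 µM zoledronate during the first day of exposure was examined as 1 drug effect pooled over 12 h and 24 h. Its samples were the 8 arrays titled as 30 µM zoledronate in lot I, 4 at 12 h and 4 at 24 h. They were set against the 8 lot I control arrays of the same times, so that 16 of the 40 arrays of the study entered the comparison. Each zoledronate array was paired with the control array of the same time and replicate number, which gave 8 pairs. The controls were cells of the same line that received the solvent alone in parallel. Lot I also held 2 µM fluvastatin cells at 12 h and 24 h, with 4 arrays at each time, which shared those controls. Lot II held 30 µM zoledronate at 48 h and 100 µM zoledronate at 24 h, with 4 arrays each and 4 controls of its own for each. Values from lot II are set beside the early ones below, but lot, time and dose cannot be told apart in them. The design text gives both doses of lot I as the half-maximal inhibitory concentration at a later time than any measured here. All cells were 1 established line, so no spread between tumours is covered.

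MDA-MB-231 is a human breast cancer line without hormone receptors, widely used as a model of spread to bone. The mevalonate pathway turns acetyl-CoA into isoprenoid diphosphates, which feed cholesterol synthesis and supply the farnesyl and geranylgeranyl anchors of small GTPases such as the Rap proteins. Zoledronate is a nitrogen-containing bisphosphonate given against bone loss, and it blocks farnesyl diphosphate synthase in this pathway. Fluvastatin, a statin, blocks an earlier step. In many cell types a loss of prenylation is followed by a rise of RHOB and of Kruppel-like factor mRNAs, and a loss of sterols by a rise of SREBP target genes.

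Expression is given as log2 RMA signal, and differences are on that scale. A difference is zoledronate minus control unless another is named, and a gene rose or fell only where its limma p, adjusted by Benjamini-Hochberg over 18417 genes, was under 0.05. The median signal of the 16 arrays lay between 6.195 and 6.282. Of 7 mesenchymal and surface genes listed as high in this line, vimentin (VIM) was the brightest. It had 12.22 ± 0.06 in zoledronate cells and 12.23 ± 0.05 in control cells (SD, n = 8 each). TGFBI was the dimmest of the 7, with means of 8.03 in zoledronate cells and 7.99 in control cells. The oestrogen receptor gene ESR1 was dim, at 4.91 ± 0.19 in zoledronate cells and 4.95 ± 0.28 in control cells (SD, n = 8 each). Among 7 epithelial and luminal genes listed as low in this line, KRT19 and EPCAM were not low. Their means were 9.29 and 8.15 in zoledronate cells, against 9.29 and 8.04 in control cells. FOXA1 and GATA3 lay in the middle range, at the 52.7 and 43 percentiles of mean signal. They had means of 7.16 and 6.46 in zoledronate cells and 7.16 and 6.53 in control cells. The means of 8 measured blood cell markers ran from 3.45 to 7.11 in zoledronate cells and from 3.48 to 7.16 in control cells. PTPRC, which marks all white blood cells, had the lowest of these means in both groups.

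Across all genes the pooled zoledronate effect was small. By limma 0 of 18417 genes rose and 0 fell (0% of the genes tested), and the smallest adjusted p was 0.511. At an unadjusted p under 0.05 there were 590 genes (3.20%), of which 253 were higher and 337 lower. The median difference was 0.003 and the median standard error 0.07. Single genes ran from −0.51 to 0.61, and 1 gene differed by 1.5-fold or more, ADCY10P1, a dim pseudogene transcript named after its value was seen. In bulk RNA, a change in few cells and a smaller change in all of them cannot be told apart.

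The 95% confidence intervals show what sizes of change the fit leaves possible. Like every standard error given here, they use 1 estimate of spread per gene over all 40 arrays, other treatments included. They therefore do not measure the spread of these 8 pairs alone. For 15528 genes (84.3%) the interval lay inside a 1.2-fold change in either direction, and for 18399 genes (99.9%) inside a 1.5-fold change. Only 18 intervals reached past 1.5-fold, and most of those genes were dim. TCP11L2, a gene that 100 µM zoledronate raised by 3.22 ± 0.36 (SE, n = 4 pairs), was the one of highest signal among them, with an early interval from −0.41 to 0.66. Changes smaller than 1.5-fold lie within many of the intervals of the other 18399 genes.

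A mean over 8 pairs is bound to vary less than single pairs do, so counts in single pairs are given as a description. In a single pair between 139 and 439 genes differed by 1.5-fold or more, against the 1 gene in the pooled effect. The differences of 1 pair also bore little resemblance to those of another. Over the 28 combinations of the 8 early pairs, Pearson's r across genes lay between −0.19 and 0.26 with a median of 0. The same measure among the 4 pairs at 100 µM, which have separate control arrays too, lay between 0.65 and 0.80 with a median of 0.75. At 48 h it lay between −0.15 and 0.40 with a median of 0.26, and among the 8 fluvastatin pairs between −0.10 and 0.51 with a median of 0.22. Genes are not independent replicates, and these correlations are given as descriptions.

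**Figure D1:**
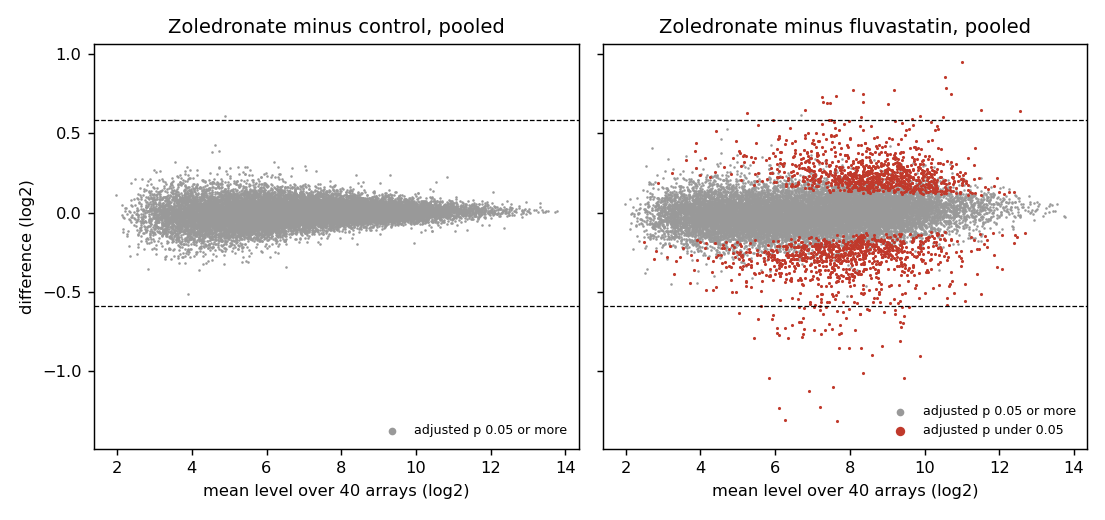
Each point is 1 of 18417 genes, with its mean log2 signal over 40 arrays on the x axis and a log2 difference on the y axis, zoledronate minus control on the left and zoledronate minus fluvastatin on the right, both pooled over 12 h and 24 h. Red points passed the adjusted p of 0.05 and dashed lines mark 1.5-fold. No gene passed on the left, and 982 higher and 995 lower genes passed on the right.

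A set of 14 genes tied to the pathway and its known outputs was followed in every array. The drug's target and the sterol feedback genes were not called. FDPS, which encodes farnesyl diphosphate synthase, had 9.52, 9.78, 9.78 and 9.53 in zoledronate cells at 12 h, against 9.38, 9.70, 9.71 and 9.67 in their paired controls. At 24 h it had 9.82, 9.96, 9.86 and 9.71 in zoledronate cells and 9.68, 9.90, 9.80 and 9.62 in control cells. Zoledronate was higher in 7 of 8 pairs, by little, and the groups overlapped at both times. The pooled difference was 0.06 ± 0.07 (SE, n = 8 pairs; interval −0.08 to 0.21). FDPS has processed pseudogenes whose transcripts could share its probes.

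HMGCS1, the enzyme that makes HMG-CoA and a standard SREBP target, varied more between replicates than between treatments. Its zoledronate arrays had 8.60, 9.49, 9.59 and 9.39 at 12 h, against 8.77, 9.48, 9.47 and 9.41 in controls. At 24 h they had 9.49, 10.13, 10.28 and 9.91, against 9.26, 9.89, 10.14 and 9.73 in controls. Replicate 1 was the lowest of every group. All 4 pairs at 24 h were higher with zoledronate and 2 of 4 at 12 h, with a pooled difference of 0.09 ± 0.12 (SE; interval −0.15 to 0.33). INSIG1, which retains the SREBP complex in the endoplasmic reticulum when sterols are plentiful, differed by 0.07 ± 0.07 (interval −0.07 to 0.22) and was higher in 6 of 8 pairs. Its zoledronate arrays ran from 8.31 through a median of 9.08 to 9.56, and its control arrays from 8.24 through 9.08 to 9.48.

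RHOB encodes a short-lived small GTPase of endosomes, and its mRNA had the largest pooled difference of these 14 genes. At 12 h it had 8.79, 8.76, 8.62 and 8.71 in zoledronate cells, against 8.79, 8.43, 8.69 and 8.56 in controls. At 24 h it had 9.25, 9.15, 8.92 and 8.93 in zoledronate cells, against 8.95, 8.46, 8.61 and 8.75 in controls. The groups overlapped at 12 h, and at 24 h only control replicate 1 stood within the zoledronate range, while all 4 pairs were higher with zoledronate. The pooled difference was 0.24 ± 0.15 (SE; interval −0.07 to 0.55; unadjusted p = 0.128, adjusted p = 1.00 by limma), made up of 0.10 at 12 h and 0.37 at 24 h.

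The promoter of RHOB is shown because its mRNA differed most between zoledronate and fluvastatin cells, as given below. That of CCN2 is shown because it stands for the genes that went the other way under fluvastatin. Both are RefSeq sequences on GRCh38.p14, 250 bases before to 50 bases after the annotated start, written 5′ to 3′ on the gene's strand. Capitals mark CCAAT in RHOB, the CCAAT box, and GGAATG in CCN2, the element bound by the TEAD factors that carry YAP and TAZ. Both motifs were searched on both strands, where they read ATTGG and CATTCC.
RHOB, chr2:20446824-20447123, + strand: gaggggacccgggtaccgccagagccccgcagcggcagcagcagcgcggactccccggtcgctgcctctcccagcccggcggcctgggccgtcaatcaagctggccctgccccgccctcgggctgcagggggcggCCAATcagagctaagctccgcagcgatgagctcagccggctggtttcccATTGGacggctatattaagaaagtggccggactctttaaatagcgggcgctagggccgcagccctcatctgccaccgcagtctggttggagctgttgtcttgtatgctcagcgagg
CCN2, chr6:131951323-131951622, − strand: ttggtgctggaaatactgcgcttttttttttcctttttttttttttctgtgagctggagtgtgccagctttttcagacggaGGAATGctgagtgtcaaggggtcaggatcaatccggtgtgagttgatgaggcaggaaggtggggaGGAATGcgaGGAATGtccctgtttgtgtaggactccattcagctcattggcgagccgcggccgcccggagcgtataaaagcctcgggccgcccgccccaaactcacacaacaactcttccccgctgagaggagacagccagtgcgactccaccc
RHOB had 2 CCAAT matches, 1 on each strand, while 10.8% of 35116 promoters had 2 or more and 34.6% at least 1. CCN2 had 3 GGAATG matches, which 0.128% of the promoters reached, and 14.03% had at least 1. The matches do not overlap, and a match is a description of the sequence, not a site shown to be used.

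TSC22D3, a leucine zipper gene induced by glucocorticoids and by FOXO factors, came closest to a call among these genes. Its zoledronate arrays had 7.06, 7.28, 7.04 and 6.97 at 12 h, against 7.04, 7.12, 6.88 and 6.90 in controls. At 24 h they had 7.45, 7.38, 7.41 and 7.13, against 6.95, 7.20, 6.94 and 7.05 in controls. Zoledronate was higher in 8 of 8 pairs, but the groups overlapped at both times because replicates differed in level. The pooled difference was 0.20 ± 0.10 (SE; interval −0.005 to 0.41; unadjusted p = 0.055, adjusted p = 1.00 by limma).

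Kruppel-like factors are zinc finger transcription factors, of which KLF2 is known for its response to statins in endothelial cells. KLF2 ran from 8.73 through a median of 8.99 to 9.40 in zoledronate cells and from 8.60 through 8.84 to 9.31 in control cells, a pooled difference of 0.14 ± 0.08 (interval −0.03 to 0.31) with 6 of 8 pairs higher. KLF6 was higher in 8 of 8 pairs, with 8.99, 8.79, 9.05 and 9.37 at 12 h in zoledronate cells and 8.94, 8.77, 9.0 and 9.29 in controls. At 24 h KLF6 had 9.25, 9.18, 9.44 and 9.44 in zoledronate cells and 8.97, 9.07, 9.27 and 9.33 in controls. The steps were small beside the range of levels, and the pooled difference was 0.11 ± 0.07 (interval −0.04 to 0.26). KLF7 had the largest difference of the 13 measured family members, 0.17 ± 0.09 with 6 of 8 pairs higher. None of the 13 was called, and their median was 0.008, against 0.003 over all genes.

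Genes driven by YAP and TAZ, coactivators that respond to cell spreading, lay close to the controls. CCN1, a secreted matrix protein, had 11.52, 11.71, 11.69 and 11.20 in zoledronate cells at 12 h and 11.69, 11.65, 11.67 and 11.30 in controls. At 24 h CCN1 had 11.47, 11.53, 11.16 and 11.07 in zoledronate cells and 11.51, 11.61, 11.26 and 10.99 in controls. Pairs went both ways, 3 higher and 5 lower, with a pooled difference of −0.04 ± 0.17 (interval −0.39 to 0.31). CCN2, known as connective tissue growth factor, differed by −0.06 ± 0.14 (interval −0.36 to 0.24). DKK1, a secreted WNT inhibitor linked to bone lesions, differed by 0.04 ± 0.15 (interval −0.27 to 0.34). The median over 26 YAP and TAZ targets was −0.01, and 10 of them lay above 0.

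MYC had the smallest pooled difference of these genes, −0.001 ± 0.07 (interval −0.15 to 0.15). It ran from 10.42 through 10.66 to 10.82 in zoledronate cells and from 10.51 through 10.62 to 10.95 in control cells. CD274, which encodes the checkpoint ligand PD-L1, differed by 0.01 ± 0.09 (interval −0.18 to 0.21). CDKN1A, the p21 inhibitor of cyclin-dependent kinases, differed by 0.05 ± 0.07 (interval −0.10 to 0.20). NDRG1, a hypoxia and stress responsive gene, differed by 0.10 ± 0.19 (interval −0.29 to 0.48). Of the 14 genes considered here, 0 were called, and every interval lay inside a 1.5-fold change.

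**Figure D2:**
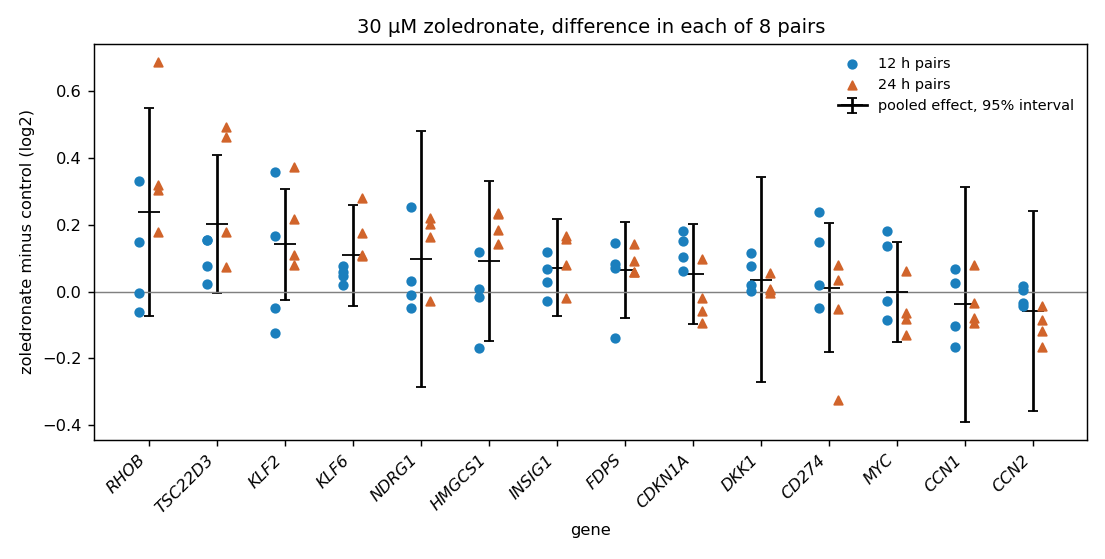
The y axis gives the log2 difference of zoledronate minus control, with 1 circle for each 12 h pair and 1 triangle for each 24 h pair of the genes on the x axis. Black marks are the pooled effect with its 95% interval, which uses the spread over all 40 arrays. Every interval includes 0. RHOB and TSC22D3 have their highest points at 24 h.

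Genes that went 1 way in all 8 pairs were counted as well. Of 18417 genes, 89 were higher in 8 of 8 pairs (0.483%) and 63 were lower in 8 of 8 (0.342%). Among so many genes some go 1 way in all 8 pairs without any drug effect. Whether these counts exceed that number was not tested, so 8 of 8 pairs is a description wherever it is given. Their differences were small, with a median of 0.10 and a largest of 0.27 among the 89, and a median of −0.13 and a largest of −0.35 among the 63. Of the 63 lower genes, 29 lay under the 33rd percentile of signal, and of the 89 higher genes 12 did. Of the 16 genes named from them by smallest p, 8 in each direction, 12 were that dim, and they included the olfactory receptor genes OR1L6, OR7G2, OR1S1 and OR9G4. OR1S1 had the smallest unadjusted p of all 8-of-8 genes, 4.46e-05, at a signal between 2.61 and 2.94 in zoledronate cells and between 2.81 and 3.54 in control cells.

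Of those 16, 4 were brighter. RILPL2, a binding partner of Rab GTPases at the primary cilium, differed by 0.14 ± 0.04 (SE, n = 8 pairs). SLC30A4, a zinc exporter, differed by 0.17 ± 0.06, and BMP2, a bone morphogenetic protein, by 0.14 ± 0.05. SNORD13, a small nucleolar RNA that guides acetylation of ribosomal RNA, differed by 0.19 ± 0.07. Their signals overlapped between groups, as with BMP2, which ran from 6.95 through 7.29 to 7.44 in zoledronate cells and from 6.60 through 7.09 to 7.38 in control cells. Each had an adjusted p of 1.00 by limma.

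Each time by itself gave the same count. At 12 h 0 genes were called (0%), with 511 at an unadjusted p under 0.05, and at 24 h 0 were called (0%), with 866. The unadjusted counts depended on the fit. Without the replicate block they were 303 at 12 h and 551 at 24 h. With only the arrays compared they were 643 and 1421, and with array weights 896 and 1548, still with 0 called. The difference between the 24 h and the 12 h effect was called for 0 genes (0%), with 767 at an unadjusted p under 0.05 and a smallest adjusted p of 0.927. The genes of smallest p in that difference were OR5M3, SNORA62, MLIP, LRRC18, MFSD2B and ZNF429. SNORA62, an H/ACA small nucleolar RNA that guides pseudouridylation, was the brightest of them and differed by −0.39 at 12 h and by 0.34 at 24 h.

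Over 31 gene lists of pathways and cell types, 542 different genes were measured. None of them was called and 8 (1.48%) had an unadjusted p under 0.05, against 3.20% of all genes. These p-values use the spread over all 40 arrays, which takes in the other treatments. The shares therefore do not show whether the listed genes changed less than others. All 542 intervals lay inside a 1.5-fold change. The medians of the 31 lists ran from −0.06 to 0.05. The 8 genes of small p fell in 7 lists. They were the GTPase RAP1A (0.14 ± 0.06, higher in 8 of 8 pairs), the interferon-stimulated gene IFI44 (0.15 ± 0.06, 8 of 8 higher), the ferritin light chain FTL (0.08 ± 0.04, 8 of 8 higher) and the endoplasmic reticulum chaperone DNAJC3 (0.09 ± 0.04, 7 of 8 higher). The histone H2BC17 (−0.26 ± 0.10), the chemokine CXCL2 (−0.23 ± 0.06, lower in 8 of 8 pairs) and the stromal genes DCN (−0.23 ± 0.07) and PDGFRA (−0.16 ± 0.07) went the other way. DCN is a small proteoglycan of fibroblasts, and its mean of 3.37 in zoledronate cells and 3.59 in control cells was among the lowest signals measured.

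The highest list median belonged to cholesterol synthesis. Its 16 measured genes had a median of 0.05, 14 of them lay above 0, and 0 had an unadjusted p under 0.05. IDI1, which isomerises isopentenyl diphosphate, was higher in 8 of 8 pairs by 0.08 ± 0.08, and SC5D, a late sterol desaturase, was higher in 6 by 0.07 ± 0.07. The median was 0.02 at 12 h and 0.07 at 24 h, against 0.01 and 0 over all genes. The 16 SREBP regulators and uptake genes had a median of 0.01. SCD, a desaturase of fatty acids, differed by 0.07 ± 0.05 and INSIG2 by 0.06 ± 0.04.

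The 15 measured enzymes that make, attach or process prenyl groups had a median of 0.01, and 0 of them had an unadjusted p under 0.05. ZMPSTE24, which trims farnesylated prelamin A, differed by 0.06 ± 0.05, and PGGT1B, a subunit of geranylgeranyl transferase I, by 0.05 ± 0.05. The 33 Ras, Rap and Rab genes had a median of 0.04, and 29 of them lay above 0, against 9650 of 18417 genes. The median was 0.05 at 12 h and 0.03 at 24 h.

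Lists of downstream programmes had medians as small. The 21 SRF and actin genes had a median of 0.015, the 29 G1 and S phase genes 0.02 and the 29 G2 and mitosis genes −0.01. The 25 hypoxia and glycolysis genes had a median of 0.03, and DDIT4, an inhibitor of mTORC1 signalling, was their largest at 0.19 ± 0.15 with 8 of 8 pairs higher. The 22 replication-dependent histone genes had a median of −0.03, with 0.004 at 12 h and −0.11 at 24 h. The 26 integrated stress and unfolded protein genes had 0.03, the 22 interferon-stimulated genes 0.02, the 22 cytokine and NF-kB genes 0.006 and the 15 BCL2 family genes 0.02. The 12 fibroblast and endothelial markers had −0.06, and their summed signal ran from 61.8 to 63.4 per array in zoledronate cells and from 62.7 to 63.9 in control cells.

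**Figure D3:**
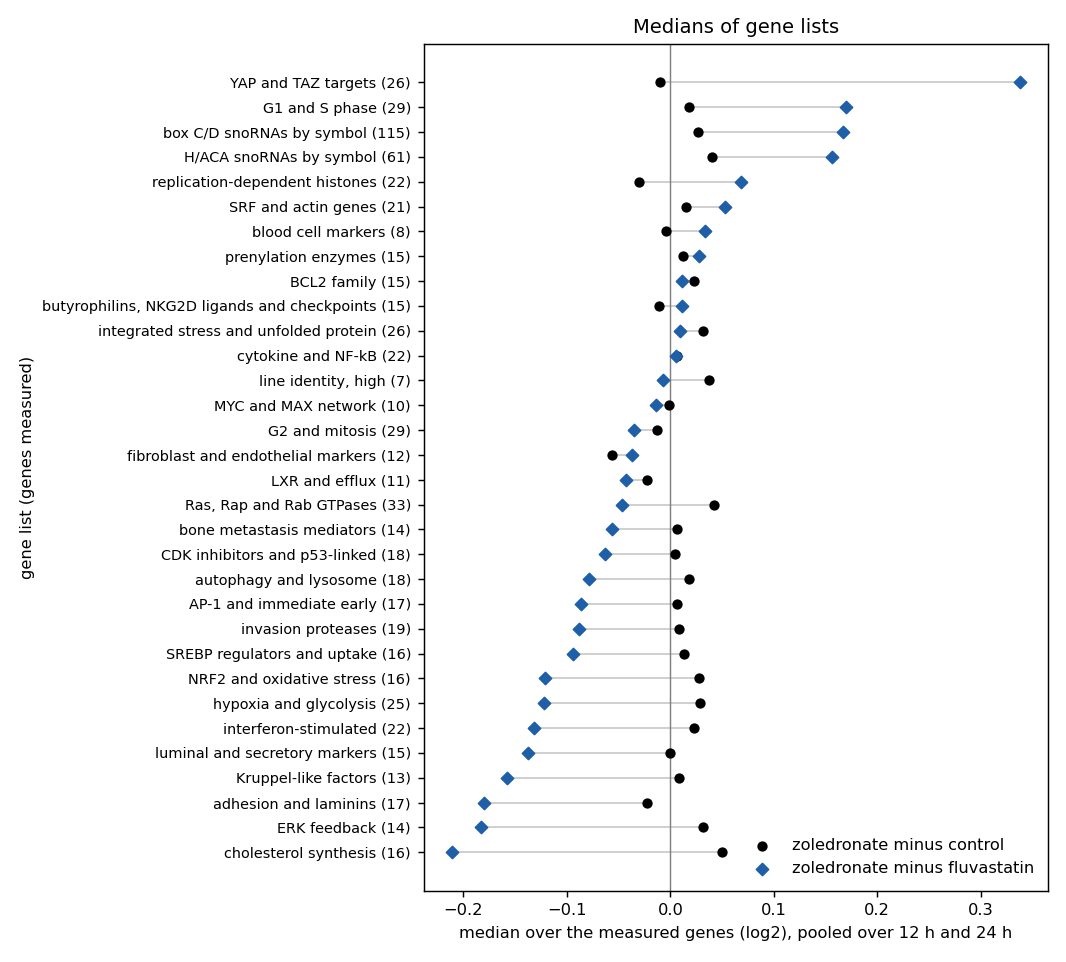
The x axis gives the median log2 difference over the measured genes of each list on the y axis, pooled over 12 h and 24 h, with black circles for zoledronate minus control and blue diamonds for zoledronate minus fluvastatin. Numbers in brackets are the genes measured, 1 of the 31 lists is left out, and the 2 snoRNA lists were added after the data were seen. The black circles lie between −0.06 and 0.05 and the blue diamonds between −0.21 and 0.34.

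The direct difference from fluvastatin showed where cells on 30 µM zoledronate stood apart from cells given 2 µM of the statin on the same days. It used the 8 zoledronate and the 8 fluvastatin arrays, paired by time and replicate number, and the shared controls cancel in it. RHOB, 6 of 13 Kruppel-like factors and 8 of 16 cholesterol synthesis genes were lower with zoledronate than with fluvastatin, and 16 of 26 YAP and TAZ targets were higher. In all, 982 genes were higher (5.33%) and 995 lower (5.40%), of which 23 and 68 differed by 1.5-fold or more. When each array was centred on its median, the split was 1330 higher and 771 lower. The fluvastatin array at 24 h of replicate 1 stood apart from its group. Over the 25 genes raised most at 100 µM zoledronate it exceeded its control by 2.11 on average, against 0.71 to 1.03 in the other 3 fluvastatin pairs at 24 h. Without the 24 h arrays of that replicate 944 genes in all were called, without its 12 h arrays 1202, and without replicate 1 at both times 544. Without replicate 3 at both times the count was 1166. The 22 genes called among the 14 followed in every array and the 6 largest in each direction were all called without that 24 h replicate too, each with a difference nearer to 0.

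RHOB differed most. Its 8 zoledronate arrays ran from 8.62 to 9.25 and all lay below its fluvastatin arrays, which had 10.67, 9.87, 10.19 and 9.65 at 12 h and 11.59, 9.56, 10.29 and 10.30 at 24 h. The difference was −1.37 ± 0.15 (SE, n = 8 pairs; limma adjusted p = 1.5e-05), and −1.21 without the 24 h pair of replicate 1. TSC22D3 differed by −0.85 ± 0.10 (limma adjusted p = 2.11e-05), with zoledronate arrays from 6.97 to 7.45 and fluvastatin arrays from 7.63 to 8.72. AKR1C1 and AKR1C2, aldo-keto reductases of steroids, differed by −1.31 ± 0.15 and −1.31 ± 0.17 (limma adjusted p = 1.58e-05 and 5.63e-05). These paralogs are so alike that their probes may share signal.

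The other 3 of the 6 genes with the largest differences below fluvastatin were ANKRD22 at −1.23 ± 0.20, SPDEF, a transcription factor of secretory epithelium, at −1.22 ± 0.16, and TCP11L2 at −1.12 ± 0.26. Each was lower than with fluvastatin in 8 of 8 pairs (limma adjusted p = 0.000366, 5.27e-05 and 0.0058). Without replicate 1 TCP11L2 differed by −0.86 and missed the threshold (adjusted p = 0.124).

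Among sterol genes, HMGCS1 ran from 8.60 through a median of 9.54 to 10.28 in zoledronate cells and from 9.31 through 10.10 to 10.79 in fluvastatin cells. The ranges overlapped, but zoledronate was lower in 8 of 8 pairs, with a difference of −0.54 ± 0.12 (limma adjusted p = 0.0036). INSIG1 differed by −0.33 ± 0.07 (limma adjusted p = 0.0034). Of the 16 cholesterol synthesis genes 8 were lower, 0 higher and 8 did not pass, with a median of −0.21. Of the 16 SREBP regulators and uptake genes 5 were lower and 0 higher. These counts stand beside 5.40% of all genes lower and 5.33% higher. FDPS differed by 0.02 ± 0.07 (interval −0.12 to 0.16), with zoledronate higher in 6 of 8 pairs. HMGCS1 and INSIG1 missed the threshold without replicate 1 (adjusted p = 0.0823 and 0.0808) and without the replicate block (0.079 and 0.15).

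Among transcription factors, KLF2 differed by −0.57 ± 0.08, KLF6 by −0.51 ± 0.07 and KLF7 by −0.62 ± 0.09 (limma adjusted p = 0.000111, 0.000125 and 0.000191, each lower in 8 of 8 pairs). Of the 13 Kruppel-like factors 6 were lower and 1 higher, where 5.40% of all genes were lower and 5.33% higher. Of 33 Ras, Rap and Rab genes 4 were lower and 0 higher, and of 15 prenylation enzymes 2 were higher and 0 lower, counts only a few genes from those shares. NDRG1 differed by −0.91 ± 0.19, DDIT4 by −0.90 ± 0.15 and CDKN1A by −0.33 ± 0.07 (limma adjusted p = 0.0024, 0.000491 and 0.0045). DDIT4 missed the threshold without the replicate block (0.0638), and CDKN1A without the block (0.0984) and without replicate 1 (0.0937).

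YAP and TAZ targets stood higher with zoledronate than with fluvastatin, 16 of 26 with 0 lower and a median of 0.34. Over all genes 5.33% were higher and 5.40% lower, with a median of −0.007. CCN1 ran from 11.07 through 11.50 to 11.71 in zoledronate cells and from 9.38 through 10.42 to 11.28 in fluvastatin cells, a difference of 0.95 ± 0.17 (limma adjusted p = 0.000796). CCN2 differed by 0.75 ± 0.14 and DKK1 by 0.86 ± 0.15 (limma adjusted p = 0.00146 and 0.00061). All 3 were higher in 8 of 8 pairs, although single arrays of CCN1 and CCN2 overlapped between the groups. Without replicate 1 the differences were 0.61 for CCN1, 0.46 for CCN2 and 0.58 for DKK1, still past the threshold (adjusted p = 0.00456, 0.00786 and 0.00398). FST, which binds activins, TGFB2, a TGF-beta ligand, NEXN, an actin binding protein, and ST6GALNAC5, a sialyltransferase, were the other 4 of the 6 genes with the largest differences above fluvastatin, at 0.75 to 0.79.

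MYC differed by 0.55 ± 0.07 and CD274 by 0.73 ± 0.09 (limma adjusted p = 6.22e-05 and 5.27e-05). The zoledronate range of MYC, 10.42 to 10.82, lay above its fluvastatin range of 9.81 to 10.34, and for CD274 the ranges were 7.21 to 7.81 and 6.53 to 7.11. Of 29 G1 and S phase genes 8 were higher and 0 lower, while of 29 G2 and mitosis genes 0 passed either way, beside 5.33% of all genes higher and 5.40% lower. SRF and actin genes were higher in 8 of 21 with 0 lower. Hypoxia and glycolysis genes were lower in 9 of 25 and higher in 1, interferon-stimulated genes lower in 7 of 22 and ERK feedback genes lower in 7 of 14 with 1 higher. Adhesion and laminin genes were lower in 6 of 17 and luminal genes in 5 of 15, with 0 higher in either list.

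**Figure D4:**
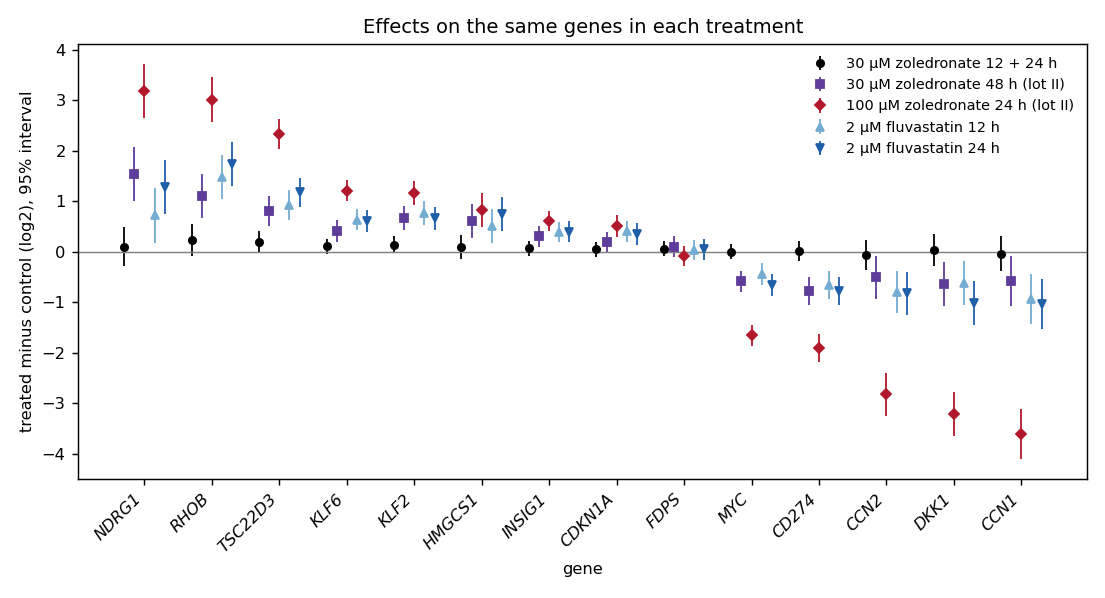
The y axis gives the log2 difference of treated minus control cells with its 95% interval for each gene on the x axis, in 5 treatments given by colour and shape. The early 30 µM zoledronate values (black) lie between −0.06 and 0.24, and RHOB reaches 3.01 at 100 µM.

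Values of longer or stronger exposure came from lot II and other control arrays. RHOB, at 0.24 ± 0.15 in the early pooled effect, differed from control by 1.11 ± 0.21 at 48 h of 30 µM and by 3.01 ± 0.21 at 24 h of 100 µM (SE, n = 4 pairs for each of the last 2). TSC22D3 had 0.20 ± 0.10 early, 0.80 ± 0.14 at 48 h and 2.33 ± 0.14 at 100 µM. CCN1 had −0.04 ± 0.17 early, −0.59 ± 0.24 at 48 h and −3.60 ± 0.24 at 100 µM. FDPS lay close to its controls in all of these, at 0.06 ± 0.07 early, 0.10 ± 0.10 at 48 h and −0.08 ± 0.10 at 100 µM.

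The effect at 48 h minus the pooled early effect passed for 482 genes (2.62%), 183 higher and 299 lower at 48 h. Among the 14 genes considered here 4 passed. KLF2 differed by 0.53 ± 0.14 and NDRG1 by 1.44 ± 0.32, while MYC differed by −0.59 ± 0.12 and CD274 by −0.79 ± 0.16 (limma adjusted p = 0.0416, 0.0181, 0.0145 and 0.0129). The count rested on the replicates, with 9 genes when replicate 3 of lot I and of 48 h was left out. The lot II arrays at 24 h stayed in that fit. Without replicate 2 of 48 h the count was 997. All 4 genes missed the threshold without replicate 3 (adjusted p = 0.261 for KLF2, 0.088 for NDRG1, 0.114 for MYC and 0.0812 for CD274). KLF2 and NDRG1 also missed it without the replicate block (0.326 and 0.117), NDRG1 without replicate 2 (0.0539) or replicate 1 of 48 h (0.107), MYC without replicate 4 (0.0937), and KLF2 in most of the fits with replicates left out. Other genes of the 14 passed only in some of 26 alternatives. These were RHOB in 8, TSC22D3 in 6, HMGCS1 and KLF6 in 3 each, DKK1 in 2 and CCN1 in 1. The split of all called genes was 165 higher and 422 lower with median centring, and 267 higher and 263 lower after new quantile normalization.

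The genes that 100 µM zoledronate changed most were followed in the early arrays. The 25 largest rises at 100 µM, which ran from 1.72 to 3.22 there, were chosen on lot II arrays. In the early pooled effect 0 of the 25 were called, 0 had an unadjusted p under 0.05 and the median was 0.09, against 0.003 over all genes. At 12 h the median was −0.01 with 10 of 25 above 0, and at 24 h it was 0.17 with 24 of 25 above 0, against 9189 of 18417 genes above 0 at 24 h. The mean over the 25 genes was −0.03, −0.06, 0.07 and −0.03 in the 12 h pairs and 0.20, 0.22, 0.14 and 0.13 in the 24 h pairs. All 4 pairs at 24 h thus lay above the highest at 12 h. The 24 h minus 12 h difference was called for 0 of the 25 genes, and 0 of them had an unadjusted p under 0.05 in it. Means of 48 h pairs ran from 0.40 to 1.35 and those of 100 µM pairs from 1.94 to 2.55.

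By smallest pooled p the 4 genes named from these 25 were RHOB, TSC22D3, DDIT4 and TNFRSF10D. TNFRSF10D, a decoy receptor for the death ligand TRAIL, differed by −0.01 at 12 h and by 0.31 at 24 h. DDIT4 differed by 0.15 at 12 h and by 0.23 at 24 h. The 25 largest falls at 100 µM had an early median of 0.003 with 14 above 0, and 0 were called. That median joins small nucleolar RNAs with other genes. The 11 small nucleolar RNAs among them had 0 above 0 at 12 h (median −0.106) and 11 at 24 h (median 0.115). Their mean in the 12 h pairs was 0.17, −0.267, −0.218 and −0.195, and in the 24 h pairs 0.32, −0.066, 0.058 and 0.343. Pairs thus went both ways at each time, and the times overlapped. Of the 14 other genes 9 lay above 0 at 12 h (median 0.02) and 3 at 24 h (median −0.035). Over all 18417 genes 9893 lay above 0 at 12 h and 9189 at 24 h. Means of the 14 were −0.071, −0.011, 0.124 and −0.004 in the 12 h pairs and −0.04, −0.098, −0.114 and 0.11 in the 24 h pairs. Here too pairs lay on both sides of 0 at each time. The 4 genes named from the 25 falls were SNORA33, EDN1, FST and NEXN. EDN1, the precursor of the vasoconstrictor endothelin, differed by −0.09 ± 0.11 (SE, n = 8 pairs), and SNORA33 by −0.01 at 12 h and by 0.37 at 24 h.

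Small nucleolar RNAs, which guide the modification of ribosomal RNA, made up 11 of the 25 largest falls. They were therefore also described as lists by symbol, chosen after the data were seen. The 61 H/ACA members had a median of −0.05 at 12 h and 0.11 at 24 h, with means of −0.006, −0.04, −0.10 and −0.03 in the 12 h pairs and 0.10, 0.07, 0.10 and 0.19 in the 24 h pairs. Every 12 h pair of this list lay below 0 and every 24 h pair above it. The 115 box C/D members had a median of −0.06 at 12 h and 0.10 at 24 h, with means of 0.03, −0.10, −0.06 and −0.07 in the 12 h pairs and 0.14, 0.04, 0.03 and 0.18 in the 24 h pairs. In the box C/D list 1 of the 4 pairs at 12 h thus lay above 0, and its value overlapped those at 24 h. In either list 0 members were called in the pooled effect and 3 had an unadjusted p under 0.05. Against fluvastatin, 22 of 61 H/ACA and 31 of 115 box C/D members were higher with zoledronate and 0 lower, beside 5.33% of all genes higher and 5.40% lower. Many of them lie in introns of host genes and have near-identical copies, so that their signals may be shared.

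**Figure D5:**
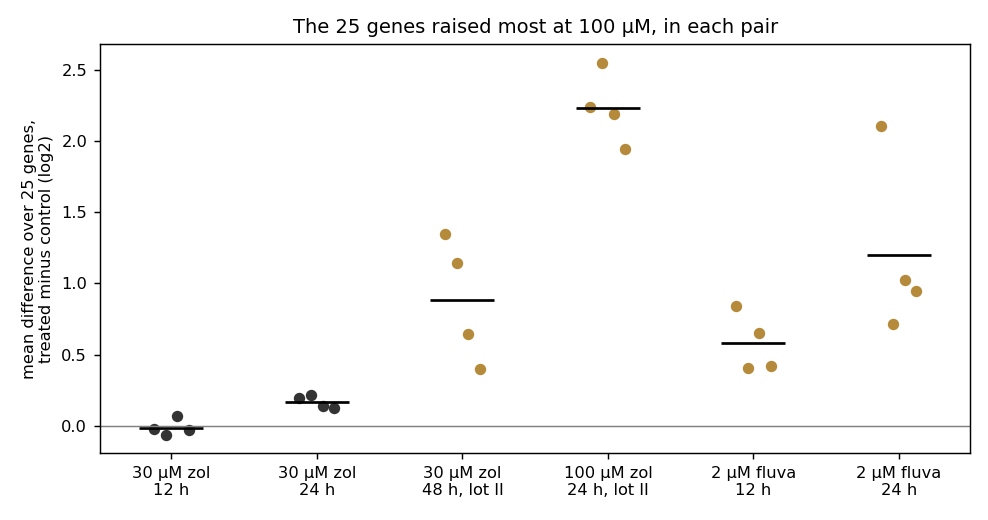
Each point is 1 pair of a treated and a control array, and its y value is the mean log2 difference over the 25 genes raised most at 100 µM zoledronate. Horizontal lines are group means, and the groups on the x axis are treatments and times. The 12 h zoledronate pairs lie between −0.06 and 0.07, the 24 h pairs between 0.13 and 0.22, and the 100 µM pairs between 1.94 and 2.55.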

How the data were processed

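Total RNA was hybridised to 40 arrays of the Affymetrix Human Gene 1.0 ST type. The deposited log2 values were made by the authors with Affymetrix Power Tools 1.10.2 and RMA, and tested with limma, per the submitters' processing notes. Not given in the sources used here are the genome build and whether RMA was run on both lots at once. RMA forces a common distribution on the arrays it is run on, which would hide a shift of all genes, and its summaries compress differences of dim probe sets. Values ran from 1.20 to 14.5. The number of arrays limits the precision.

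Of 33297 probe sets, 19460 had 1 gene symbol, 1754 had several and the remaining 12083 were counted as unnamed. Of those with 1 symbol, 19429 matched RefSeq by gene number. For 769 genes with several probe sets the brightest was kept, which left 18417 genes, with no filter on dim ones.

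The fit (limma 3.58.1, R 4.3.3) held 40 arrays, 16 blocks of lot, time and replicate number, and 6 treated effects, with 18 residual degrees of freedom. All comparisons share 1 estimate of spread per gene from these 40 arrays. The pooled effect is the mean of the 12 h and 24 h effects. The pairing follows the design text, which gives the day of measurement as the source of the pairs and 4 independent replicates. Deviations of same-numbered zoledronate and control arrays from their group means correlated in all 8 pairs (r = 0.21 to 0.60). The fit was run on simulated data with known changes in the early zoledronate arrays only. Those data held no effects of the other treatments, so they do not check the shared estimate of spread.

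The members, lists and tests were chosen with earlier results of these data known. Genes were named by rule: the 8 of smallest p in each direction among those going 1 way in 8 of 8 pairs, a fixed set of 16 genes (2 of them not analysed here), up to 3 of smallest p per list, and the largest of each contrast. Exceptions are said where they stand. The result of 1 gene list is not reported here. Alternatives were other blocks, other sets of arrays, normalizations, probe set rules, variance settings, and replicates left out.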

Additional observations from a re-analysis of the deposited data

Results flagged for a closer look

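Over 57 groups of 8 pair differences, 9 held a pair that stood far from the rest, where chance would set apart about 1 in 20 groups. In zoledronate minus control these were CXCL2, at −0.663 in replicate 2 at 24 h, and FDPS, at −0.139 in replicate 4 at 12 h. The other 7 all came from replicate 1 at 24 h in zoledronate minus fluvastatin, where the fluvastatin array stood apart: DKK1 at 2.207, NDRG1 at −2.458, AKR1C1 at −2.693, AKR1C2 at −2.838, ANKRD22 at −2.585, SPDEF at −2.819 and TCP11L2 at −2.607. These genes were chosen for that contrast or for their link to it, and share that 1 array.

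The mean over 61 H/ACA small nucleolar RNAs was 0.158 higher in the zoledronate effect at 24 h than at 12 h, with all pairs of 1 time on 1 side of 0, and this difference was not tested. The effect at 48 h minus the early effect was 0.533 for KLF2, −0.586 for MYC, 1.444 for NDRG1 and −0.792 for CD274, each past the threshold of limma. Lot and time cannot be told apart in these 4 values.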

How the results depend on the processing

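The pooled effect gave 0 called genes under all 25 alternatives, with 292 to 1199 genes at an unadjusted p under 0.05, and so did 12 h, 24 h and their difference. For the 136 genes named by rule, 0 of 3227 values under alternatives were called in the pooled effect and 46 changed sign, all of them uncalled. Without the replicate block 0 genes were called in the pooled effect. The early signed median over the 50 genes changed most at 100 µM ran from 0.004 to 0.054 over its alternatives, all within the spread between pairs. Zoledronate minus fluvastatin, 1977 genes in all, gave 790 with no replicate block and 1280 with only the arrays compared, and from 544 to 1979 with replicates left out. Of 49 named genes called in it, 22 lost the call under at least 1 alternative. The effect at 48 h minus the early effect, 482 genes, gave 47 with no replicate block, 316 with only the arrays compared, 863 without the dimmest genes, 291 over all probe sets, 795 with an intensity trend, 1138 with array weights, and from 9 to 997 with replicates left out. Fits that left out pairs of 48 h were added after seeing the data. The cause of these shifts was not tested.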

Other observations

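Further gene lists, in zoledronate minus control over the 8 early pairs, had 0 members called. Among them the NRF2 and oxidative stress genes (16 measured) had a median of 0.03, the autophagy and lysosome genes (18) 0.02, and the AP-1 and immediate early genes (17) 0.006. ERK feedback genes (14), which dampen signalling below Ras, had a median of 0.03, and the MYC and MAX network (10) −0.001. The CDK inhibitor and p53-linked genes (18) had 0.004, with CDKN2A highest at 0.14, and the bone metastasis mediators (14) 0.006, with CTSK, an osteoclast protease gene, lowest at −0.13. Invasion proteases (19) had 0.008, adhesion and laminin genes (17) −0.02, LXR and efflux genes (11) −0.02, luminal genes (15) 0, and butyrophilins, NKG2D ligands and checkpoints (15) −0.01. These medians stand beside 0.003 over all genes.

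In zoledronate minus fluvastatin, where 5.33% of all genes were higher and 5.40% lower, the NRF2 list had 5 of 16 members lower and 0 higher. Autophagy and lysosome genes had 5 of 18 lower and 0 higher, and CDK inhibitor and p53-linked genes 6 of 18 lower and 2 higher. Of AP-1 and immediate early genes 4 of 17 were lower and 2 higher, of cytokine and NF-kB genes 4 of 22 lower and 1 higher, and of invasion proteases 4 of 19 lower and 1 higher. Bone metastasis mediators had 3 of 14 lower and 1 higher, and integrated stress and unfolded protein genes 3 of 26 lower and 1 higher. MYC and MAX network genes had 2 of 10 lower and 2 higher, BCL2 family genes 2 of 15 higher and 0 lower, the butyrophilin list 2 of 15 higher and 0 lower, and replication-dependent histones 0 of 22 either way. Several of these counts are only a gene or a few from the share over all genes.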
